A study of Mus musculus with 16 samples.

Results

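The 10 genes described here form the core of the circadian clock: the activators Clock and Arntl (also called Bmal1), the repressors Per1, Per2, Per3, Cry1 and Cry2, the nuclear receptors Nr1d1 and Nr1d2, and Dbp, a transcription factor driven by the clock. They were chosen by name, and every row with 1 of these names was taken from 8 deposited lists of N6-methyladenosine (m6A) peaks, 1 list per mouse liver. All 10 genes had a peak in at least 1 liver, out of 8284 genes with a peak in the series, and together they had 28 of the 28297 peaks. The lists' own pathway column places 8 of the 10 under circadian rhythm, leaving out Dbp and Nr1d2.

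The livers came from 4 male db/db mice, a model of obesity and type 2 diabetes caused by loss of the leptin receptor, and from 4 male lean mice labelled C57BL/6. The strain label of the first group names the mutation alone, and both groups had free access to food under a regular light and dark cycle. The ages of the mice and the hour of day at which livers were taken are not given in the sources used here. Marked RNA was found by immunoprecipitation, in which RNA fragments are pulled down with an antibody to m6A and sequenced.

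The proteins of Clock and Arntl bind DNA as a pair and switch on the Per and Cry genes, whose proteins return to the nucleus and block that pair. The same pair drives Nr1d1 and Nr1d2, whose proteins REV-ERB alpha and REV-ERB beta repress Arntl, and Dbp, which passes the rhythm on to many liver genes. In liver most of these transcripts rise and fall over the day, and the clock helps time the metabolism of fat, glucose and bile acids. m6A is laid down on many messenger RNAs and bears on how long they last and how well they are translated.

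The lists held between 2475 and 4807 peaks, with 3882 ± 848 per db/db mouse and 3192 ± 833 per lean mouse (SD, n = 4 each). Read counts were not analysed here, so depth was unknown, and a gene with no listed peak cannot be read as free of m6A. In whole liver, fewer cells of a type and less RNA per cell cannot be told apart. Of 8 hepatocyte markers 3 had a peak in any list, with 0 to 2 per db/db mouse and 0 to 1 per lean mouse, and Alb, Cps1, Cyp2e1, Serpina1c and Tat had none. Of the markers of other cells, 5 of 6 for Kupffer cells, 6 of 6 for stellate cells, 6 of 6 for sinusoidal endothelium and 3 of 4 for cholangiocytes had a peak, at 0 to 4 markers of a cell type per db/db list and 1 to 3 per lean list. None of the 4 lymphocyte and neutrophil markers had one, and the part of any cell type in the clock gene peaks was not tested.

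Clock gene peaks were scattered over the mice. Peaks lay in 5, 2, 5 and 3 of the 10 genes in db/db mice 1 to 4, against 4, 3, 1 and 1 of the genes in lean mice 1 to 4. Db/db mice 1 and 3 had the most, lean mice 3 and 4 the fewest, and the groups overlapped. The number of peaks was 6, 4, 5 and 3 in db/db livers, against 4, 3, 1 and 2 in lean livers, and these covered 887, 248, 438 and 208 bases in db/db mice, against 305, 153, 113 and 185 bases in lean mice. No gene of the 10 had a peak in more than 4 of the 8 mice: Per2 had one in 4, Clock, Per3 and Nr1d1 in 3, Nr1d2 in 1 and the other genes in 2. The median of 2 mice per gene equals the median over all 8284 genes.

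**Figure D1:**
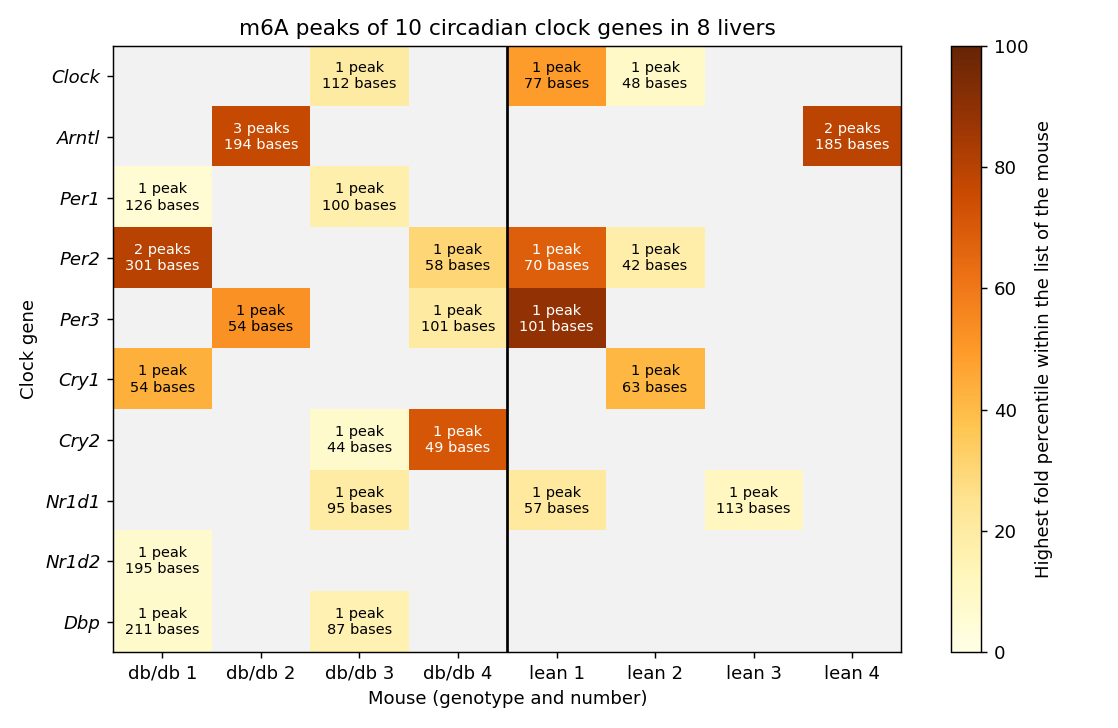
Each row is a clock gene and each column a mouse, db/db mice left of the line and lean mice right of it. The colour gives the highest percentile that a peak of the gene reaches by fold within the list of that mouse, the text the number of peaks and the bases they cover, and grey cells have no peak. Per2 is filled in 4 mice, the most of any gene, and Per1, Cry2, Nr1d2 and Dbp are filled in db/db mice only.

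Clock, which encodes the histone acetyltransferase of the activating pair, had 3 peaks in 2 regions. One region was shared by lean mice 1 and 2, at chr5:76216140-76216216 (mm10, as all positions here), with folds of 9.58 and 5.5. The fold enrichment of a peak is the authors' own value for that list. How peaks were called against the inputs is not given, so peaks of different mice are compared by their percentile within the list. Both peaks had their midpoints 93.4% of the way along the annotated gene, and they were assigned by the lists to transcript NM_007715. The third peak, in db/db mouse 3, lay at the other end of the gene, at chr5:76304663-76304774, with a fold of 6.36, and was assigned to transcript NM_001289826. Clock thus had peaks in both genotypes but at no shared site. Peaks of Clock covered 0, 0, 112 and 0 bases in db/db mice 1 to 4, against 77, 48, 0 and 0 bases in lean mice 1 to 4, so that 3 db/db mice and 2 lean mice had none and the groups overlapped (exact permutation test over the 70 assignments of mice, two-sided, p = 1).

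Arntl, the partner of CLOCK, had 5 peaks in 2 mice and no region in common between them. Db/db mouse 2 held 3, at chr7:113207527-113207585, chr7:113274657-113274745 and chr7:113285015-113285060, with folds of 18.29, 9.15 and 18.29. Lean mouse 4 held the other 2, at chr7:113299345-113299433 and chr7:113313746-113313841, with folds of 16.71 and 18.8. They spread along the gene, whose annotated span is 135656 bases, from 21.4% to 99.8% of its length, and the nearest neighbours were 10269 bases apart. Within their lists these folds lay at the 34.5th to the 78.6th percentile, and 4 of the 5 were above the 70th. Its peaks covered 194 bases in db/db mouse 2 and 185 bases in lean mouse 4, with 0 in the other 6 mice, so that each genotype had 1 mouse with peaks (exact permutation p = 1).

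The peak of Clock in db/db mouse 3 and the first peak of Arntl in db/db mouse 2 each began just after an annotated start of transcription, and the sequences around these starts are shown to place the peaks. The Clock peak also lay wholly before another annotated start of the gene, from 226 to 115 bases upstream of it, so its place relative to a start differs between the annotated transcripts. Each run is the gene's own strand, 5′ to 3′, from RefSeq (GRCm38.p6, with the same numbering as mm10), with 250 bases before the start site and 30 from it on. Capitals mark the bases that lie inside the peak, which goes on past the end of the run.
Clock, chr5:76304763-76305042, minus strand: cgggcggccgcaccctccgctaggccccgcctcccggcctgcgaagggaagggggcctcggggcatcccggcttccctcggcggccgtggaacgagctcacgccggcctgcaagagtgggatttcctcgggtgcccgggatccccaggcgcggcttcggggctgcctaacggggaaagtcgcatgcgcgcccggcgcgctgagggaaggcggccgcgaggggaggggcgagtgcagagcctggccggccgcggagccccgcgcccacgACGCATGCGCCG
Arntl, chr7:113207261-113207540, plus strand: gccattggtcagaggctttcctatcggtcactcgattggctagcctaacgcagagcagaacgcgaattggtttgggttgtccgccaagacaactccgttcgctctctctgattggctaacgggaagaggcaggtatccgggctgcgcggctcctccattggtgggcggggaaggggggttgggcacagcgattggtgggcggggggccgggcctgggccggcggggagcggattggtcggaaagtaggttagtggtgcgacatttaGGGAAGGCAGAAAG
In Clock the peak ran from base 19 to base 130 after that start, of which 12 bases are shown, and in Arntl from base 17 to base 75, of which 14 are shown. These were the only peaks to overlap such a window among the 9 genes that had at least 1 window. Per2 had none, so its peaks could not be placed in this way. On either strand, neither run holds an exact match to the E-box CACGTG, to which the CLOCK pair binds. The same is true of the ROR element half-site AGGTCA, to which REV-ERB proteins bind, and of GGACT, a common form of the m6A motif. Other forms of these motifs, and bases past the Arntl run, were not searched. A lack of CLOCK or REV-ERB sites near these starts therefore cannot be read from the runs. Among 32851 windows of the same length, 6.79% held the E-box, 15.3% the half-site and 42.8% GGACT, on either strand. Most of each run lies before the start site, so the absence of GGACT from it does not bear on m6A in the peaks. The whole 112 bases of the Clock peak lie in the window of the other start, chr5:76304519-76304798, which is not printed. There GGACT occurred 1 time within the peak on the gene's strand and 0 times on the opposite strand. The stretch at the same distance from the start held it on either strand in 19.7% of all windows.

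Per1, whose RNA is among the first to respond to light and hormones, was listed for db/db mice 1 and 3 and in no lean mouse. The peaks lay next to each other at chr11:69109081-69109206 and chr11:69109231-69109330, with 24 bases between them, at 94.5% and 95.4% of the gene's length. Their folds were 5.28 and 5.98. Peaks of Per1 covered 126, 0, 100 and 0 bases in db/db mice 1 to 4, against 0 in all 4 lean mice, a difference in means of 56.5 bases (exact permutation p = 0.429). Db/db mice 2 and 4 had no peak either, so the groups overlapped at 0.

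Per2, whose protein also binds nuclear receptors that govern metabolism, had 5 peaks in 4 regions and was found in 2 db/db mice and 2 lean mice. The region at chr1:91423690-91423805 was shared by db/db mouse 1, with a fold of 17.21, and lean mouse 2, with a fold of 6.43, and 42 bases lay in both peaks. Db/db mouse 1 had a further peak at chr1:91421368-91421552, with a fold of 6.65, and db/db mouse 4 a peak at chr1:91444725-91444782, with a fold of 7.88. The position in db/db mouse 4 also lies in the annotated gene Gm35591, and no use of strand is stated, so reads of the 2 genes cannot be told apart there. Lean mouse 1 had its peak at chr1:91459248-91459317, which ends 34 bases inside the annotated upper bound of the gene, with a fold of 12.64. Peaks covered 301, 0, 0 and 58 bases in db/db mice 1 to 4, against 70, 42, 0 and 0 bases in lean mice 1 to 4 (exact permutation p = 0.714), and db/db mouse 1 was the highest. Without that mouse the difference in means, db/db minus lean, was -8.67 bases, against 61.8 with it.

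Per3, the third period gene, had 3 peaks in 3 mice and in 3 different regions. Those of db/db mouse 4, at chr4:151041364-151041464, and of db/db mouse 2, at chr4:151042676-151042729, lay 1211 bases apart near the 5′ end, at 6.91% and 4.20% of the gene's length, with folds of 6.77 and 12.03. That of lean mouse 1, at chr4:151013652-151013752, lay at 65.0% with a fold of 19.54 and a peak p-value of 4.63e-23. At the 88.9th percentile of its list it ranked highest of the 28 clock gene peaks. Peaks of Per3 covered 0, 54, 0 and 101 bases in db/db mice 1 to 4, against 101, 0, 0 and 0 bases in lean mice 1 to 4, and the groups overlapped (exact permutation p = 1).

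Cry1 and Cry2 encode cryptochromes, the main repressors of the CLOCK pair. Cry1 had 2 peaks, that of db/db mouse 1 at chr10:85143750-85143803, and that of lean mouse 2 at chr10:85146736-85146798, with folds of 10.25 and 9.44. These were 2932 bases apart, at 77.4% and 71.8% of the gene's length. Their p-values, 5.75e-06 and 5.37e-06, were close to the limit of 1e-05 at which the lists end. Cry2 had a peak in db/db mouse 3, at chr2:92413876-92413919, and in db/db mouse 4, at chr2:92422172-92422220, 8252 bases away, with folds of 4.99 and 16.3, and none in lean mice. The first of these was the only clock gene peak with a fold under 5, and without it 1 db/db mouse had a peak of Cry2, with a difference in means of 12.3 bases in place of 23.3. Both Cry2 positions also lie in the annotated gene D930015M05Rik, so their assignment is uncertain. Peaks of Cry2 covered 0, 0, 44 and 49 bases in db/db mice 1 to 4, against 0 in all lean mice, and the 2 genotypes overlapped at 0 (exact permutation p = 0.429).

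Nr1d1, the gene of REV-ERB alpha, had the most repeatable site of the 10 genes. None of its peaks had a p-value of 1e-10 or less. Its 3 peaks, in db/db mouse 3 and in lean mice 1 and 3, all fell in 1 region, chr11:98769776-98769888, with midpoints 74.6%, 74.2% and 74.5% of the way along the gene. A stretch of 50 bases, chr11:98769823-98769872, lay in all 3 peaks. The folds were 6.3 in db/db mouse 3, against 6.49 and 6.53 in lean mice 1 and 3. Within their lists these stood at percentile 19.3 in db/db mouse 3, against 21.4 and 11.7 in lean mice 1 and 3. Peaks covered 0, 0, 95 and 0 bases in db/db mice 1 to 4, against 57, 0, 113 and 0 bases in lean mice 1 to 4 (exact permutation p = 0.714), and both genotypes held mice with and without the site. Nr1d2, the gene of REV-ERB beta, had a single peak of 195 bases in db/db mouse 1, at chr14:18222059-18222253, 48.4% of the way along the gene, with a fold of 5.56.

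Dbp, a transcription factor first known for its binding to the albumin promoter, had 1 region in db/db mice 1 and 3 and none in lean mice. The region was chr7:45706662-45706872, and the peak of db/db mouse 3, with 87 bases, lay wholly inside that of db/db mouse 1, with 211 bases, the longest of the 28. Their folds were 5.62 and 5.86, and their midpoints lay 1667 and 1705 bases into a gene of 5104 bases. Peaks covered 211, 0, 87 and 0 bases in db/db mice 1 to 4, against 0 in all 4 lean mice, with a difference in means of 74.5 bases (exact permutation p = 0.429). Of the 10 genes, Dbp alone had a region that recurred among db/db mice and was listed in no lean mouse.

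**Figure D2:**
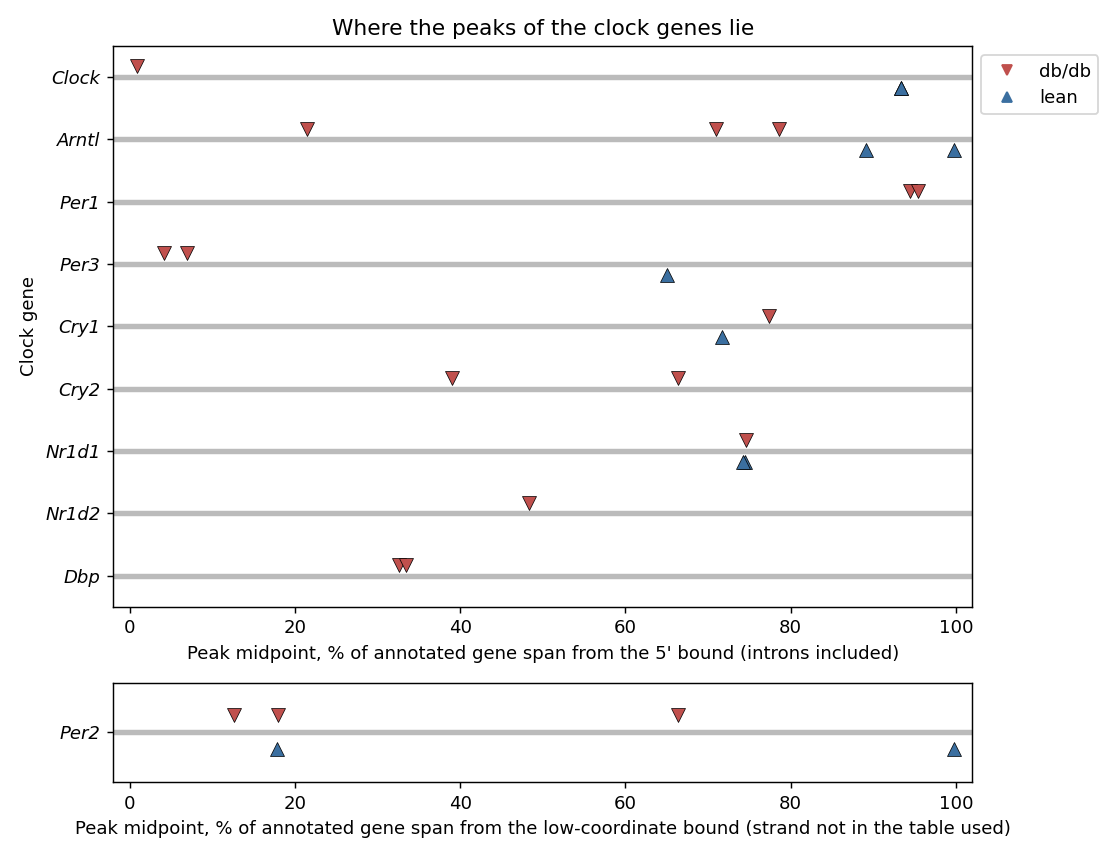
Each marker is the midpoint of 1 peak, as a percentage of the annotated gene span with introns included, with db/db peaks above the line and lean peaks below it. For Per2, whose strand is not in the table used, the span runs from the low coordinate. Markers of both genotypes coincide at Nr1d1, at 74.2% to 74.6% of the span, and at the shared Per2 site.

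Along the genes, the 23 peaks of the 9 genes with a known strand had a median position of 71.8% of the span, against 62.2% for the 21124 peaks of the series that could be placed in this way. Of the 23, 5 lay in the last 10% of the span (21.7%, against 26.4% of all peaks) and 3 in the first 10% (13.0%, against 24.8%). Exons were not annotated in the tables used, so that exons, introns and UTRs were not told apart.

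Most sites were seen in a single mouse. The 28 peaks made 23 regions, where peaks sharing at least 1 base within a gene were joined, and 19 of the regions had a peak in 1 mouse. The 4 recurring regions were those of Dbp (2 db/db mice), Clock (2 lean mice), Per2 (1 db/db mouse and 1 lean mouse) and Nr1d1 (1 db/db mouse and 2 lean mice). That is 17.4% of the clock regions, against 23.4% of all 17936 regions in the series. Within 1 genotype alone, 1 of 23 clock regions recurred among db/db mice (4.35%, against 3.43% of all regions) and 1 of 23 among lean mice (4.35%, against 2.43%), while 2 recurred across genotypes (8.70%, against 17.6%). None of the 23 had a peak in 4 or more mice, against 7.92% of all regions. Without db/db mouse 1 the number of recurring clock regions was 2, and likewise without lean mouse 2. When peaks up to 100 bases apart were joined, there were 5 recurring regions, as the adjacent Per1 peaks of db/db mice 1 and 3 then formed 1.

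**Figure D3:**
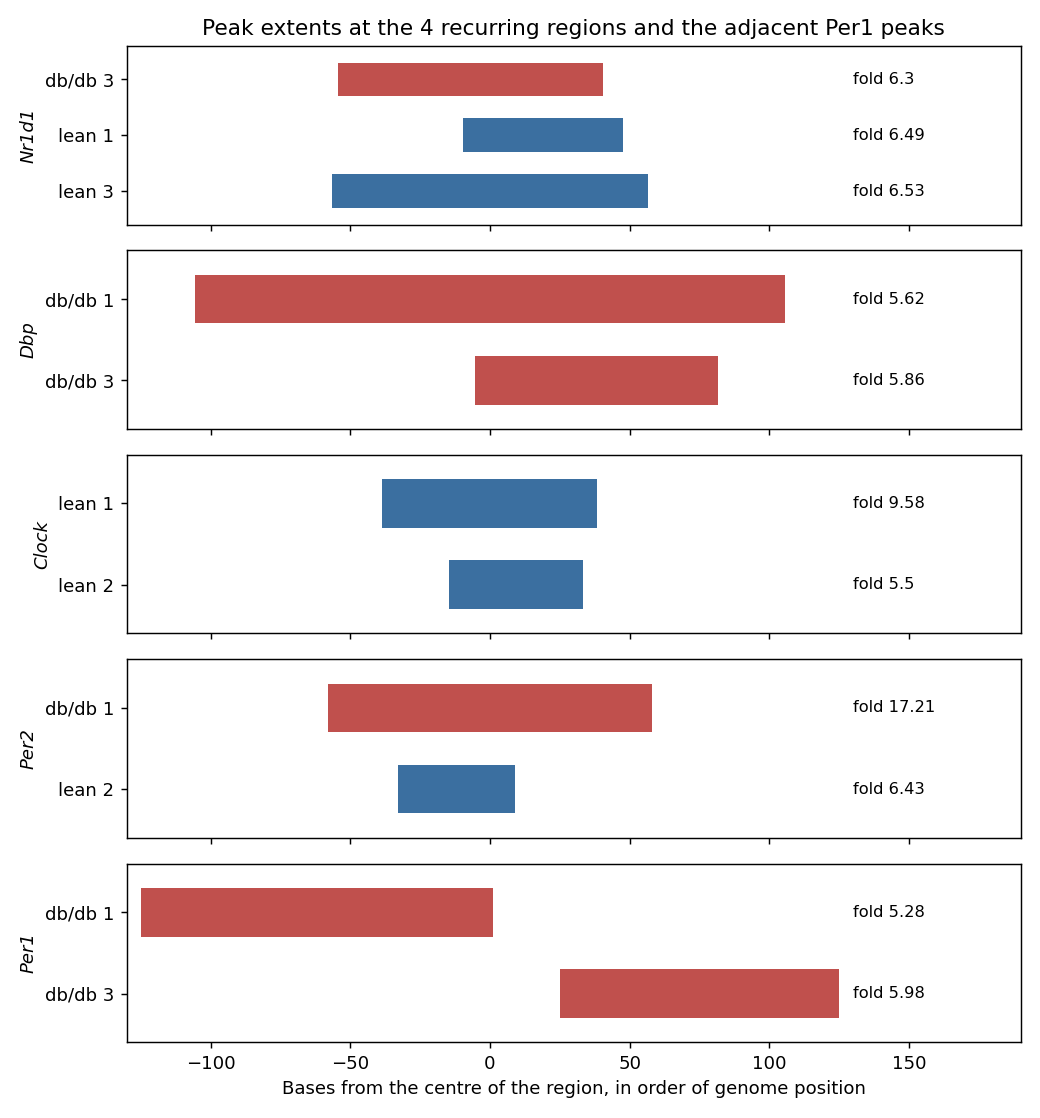
Bars show the extent of each peak, in bases from the centre of the region, for the 4 recurring regions and for the adjacent Per1 peaks, with db/db mice above lean mice and the fold of each peak at the right. At Nr1d1 the 3 peaks overlap over 50 bases, at Dbp 1 peak lies inside the other, and at Per1 the 2 db/db peaks stand 24 bases apart.

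The peaks of the clock genes were weak within their lists. By fold, 19 of the 28 lay below the 50th percentile of their own list, and the median was the 25.7th percentile. The 9 peaks in recurring regions had a median at the 17.6th percentile, and 8 of them lay below the 50th. The 19 peaks in single regions had a median at percentile 41.2, and 11 of them lay below the 50th. Over all 28297 peaks the medians stood in the other order, at percentile 54.2 in recurring regions and percentile 45.9 in single regions. Recurring clock regions were all in 2 or 3 mice. Over all peaks, regions in 2 or 3 mice had a median at percentile 47.6, close to single regions, and those in 4 or more mice at percentile 60.8. These are descriptions of 28 peaks, several of which share a mouse or a gene. Clock gene peaks were longer than most, at a median of 88 bases against 74.

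**Figure D4:**
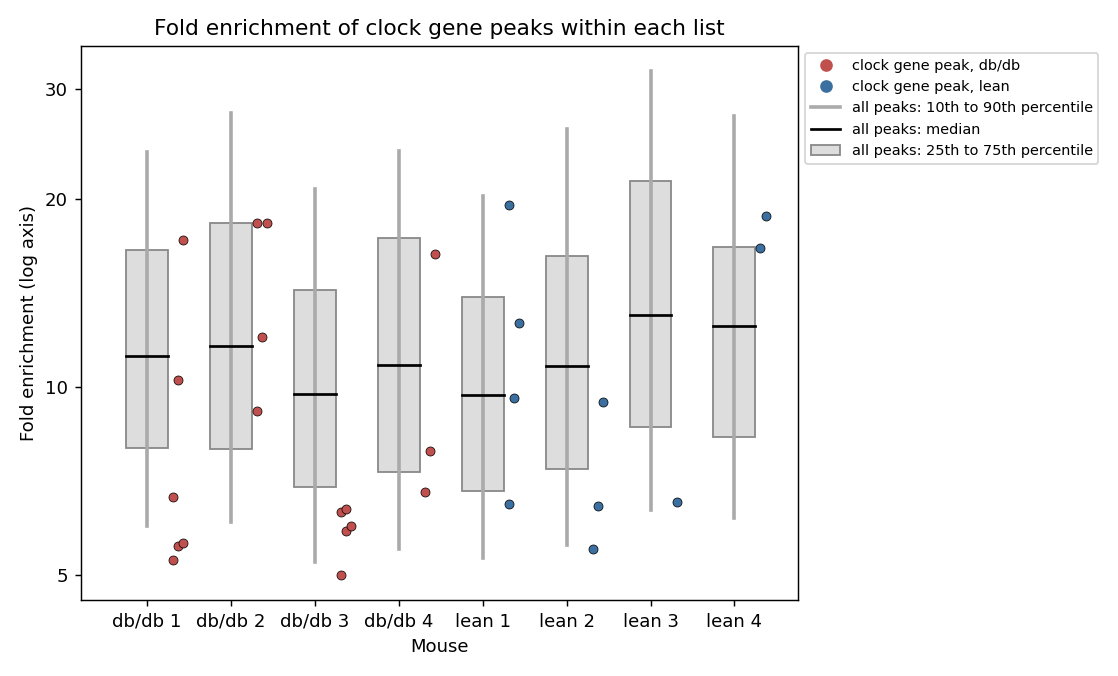
For each mouse the box spans the 25th to the 75th percentile of the fold enrichment of all its peaks on a log axis, the grey line the 10th to the 90th and the black line the median, and each point beside it is a clock gene peak. All 5 points of db/db mouse 3 lie below the median of that list, whereas both Arntl peaks of lean mouse 4 lie above theirs.

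Between the genotypes no clock gene passed a test. In Fisher's exact test of mice with a peak, adjusted over all 8284 genes, 0 of the 10 genes were called, against 0% of all genes, and the lowest adjusted p over all genes was 1. The lowest unadjusted p among the 10 was 0.429, for Per1, Cry2 and Dbp, each with a peak in 2 of 4 db/db mice and 0 of 4 lean mice, and 0 of the 10 had an unadjusted p under 0.05. With 4 mice against 4, the smallest p possible is 0.0286. It needs 4 mice with a peak against 0, which 0.205% of all genes reached for db/db mice and 0.133% for lean mice. Covered bases are 0 wherever no peak is listed, so their test is not independent of presence. The exact permutation test of covered bases called 0 of the 10 genes after adjustment (0% of all genes). At an unadjusted p under 0.05 it also called 0, against 0.531% of all genes higher in db/db mice and 0.338% higher in lean mice. Of the 23 clock regions 0 were called by Fisher's exact test (0% of all regions), and 0 had an unadjusted p under 0.05, against 0.167% of all regions. Counted without a test, 1 clock region, in Dbp, had at least 2 more db/db than lean mice, against 4.47% of all regions, and 1, in Clock, had at least 2 more lean than db/db mice, against 3.57%.

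Counted without a test, 3 of the 10 genes had a peak in at least 2 more db/db than lean mice (Per1, Cry2 and Dbp), against 12.1% of all genes, and 0 in at least 2 more lean than db/db mice, against 7.33%. Among the 5 clock genes found in exactly 2 mice, these 3 had both in db/db mice and the other 2, Arntl and Cry1, had 1 in each genotype. Of all 1879 genes found in 2 mice, 28.1% had both in db/db mice, 56.0% had 1 in each and 15.9% had both in lean mice. By any excess of mice, 5 clock genes had more db/db mice, 2 more lean mice and 3 equal numbers (50%, 20% and 30%), against 45.3%, 32.3% and 22.5% of all genes. The genes were chosen with earlier results of the same lists known, so these counts are a description only.

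Per mouse, 3.75 ± 1.5 of the 10 genes had a peak in db/db livers and 2.25 ± 1.5 in lean livers (SD, n = 4 each), a difference of 1.5 that equals the spread between mice. The share of all 8284 genes with a peak moved the same way. It was 35.3% ± 5.53 in db/db and 30.5% ± 7.60 in lean livers. Lists from db/db livers were longer on average only. Their lengths, 2831 to 4807 peaks, overlapped those of the lean lists, 2475 to 4394 peaks. When each list was cut to the 2475 peaks of highest fold, 1 gene per db/db mouse and 1.75 per lean mouse remained on average, a difference of -0.75. At that length no peak of Per1, Nr1d2 or Dbp remained, while the 5 peaks of Arntl all did. The lowest folds kept were 10.97, 6.36, 7.65 and 9.39 in db/db mice 1 to 4. In lean mice 1 to 4 they were 8.85, 6.36, 3.13 and 6.84. The cut thus set an unlike fold limit in each list and cannot separate list length from fold. The part of list length in the clock gene counts was not tested.

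Of 46 further genes that work with the core clock or under it, 28 had a peak. Of these, 13 were found in more db/db mice, 8 in more lean mice and 7 in equal numbers. These shares (46.4%, 28.6% and 25%) were near those of all genes, at 45.3%, 32.3% and 22.5%. By at least 2 mice, 5 of the 28 had more db/db and 3 more lean mice, against 12.1% and 7.33% of all genes. None was called in either test after adjustment over all genes, and 0 had an unadjusted p under 0.05. Kmt2a, a histone methyltransferase that works with CLOCK, had a peak in all 8 livers at chr9:44881055-44881118, at a median of the 97.8th percentile by fold. Ncor1, the corepressor that REV-ERB proteins recruit, was listed for 3 of 4 db/db mice and for all 4 lean mice, and 1 db/db mouse shared the region chr11:62384718-62384845 with 3 of the lean mice. Of the acetyltransferases that assist the CLOCK pair, Ep300 was listed for 3 db/db and 2 lean mice, all 5 of them sharing the region chr15:81650790-81651169, and Crebbp for 3 db/db mice and 0 lean mice (Fisher's exact p = 0.143, adjusted p = 1), with no region in common.

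Wee1, a kinase that delays cell division and is under clock control in mouse liver, was listed for the most db/db mice among the genes named for a difference. Its peaks covered 52, 55, 71 and 32 bases in db/db mice 1 to 4, against 0, 0, 76 and 0 bases in lean mice 1 to 4. All 4 db/db mice and 1 lean mouse thus had a peak, and lean mouse 3 lay above every db/db mouse in covered bases (Fisher's exact p = 0.143, adjusted p = 1). Of its 3 regions, chr7:110141956-110142031 was shared by 2 db/db mice and lean mouse 3. Noct, a phosphatase whose transcript peaks at night in mouse liver, stands in the lists under its older symbol Ccrn4l. Its peaks covered 255, 178, 0 and 91 bases in db/db mice 1 to 4, against 0 in all 4 lean mice. The 3 db/db mice shared 1 region, chr3:51224659-51224923, while db/db mouse 3 overlapped the lean mice at 0 (Fisher's exact p = 0.143, adjusted p = 1). Rora, a receptor that competes with REV-ERB proteins to switch Arntl on, and Huwe1, a ubiquitin ligase that targets REV-ERB alpha, were each listed for 2 db/db mice and 0 lean mice. Gsk3b and Prkaa1, kinases that mark clock proteins for stability or breakdown, were each listed for 0 db/db mice and 2 lean mice. None of Rora, Huwe1, Gsk3b and Prkaa1 had a region shared by 2 mice (Fisher's exact p = 0.429 each, adjusted p = 1). Ppargc1a, a coactivator that links the clock to energy metabolism, was listed for 1 db/db mouse and for 3 lean mice, all in the region chr5:51553797-51553921, at a median of the 93.0th percentile by fold. Of the genes with no listed peak, Npas2 is a relative of CLOCK, Tef is a relative of DBP, and Nfil3 competes with DBP for its sites.

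**Figure D5:**
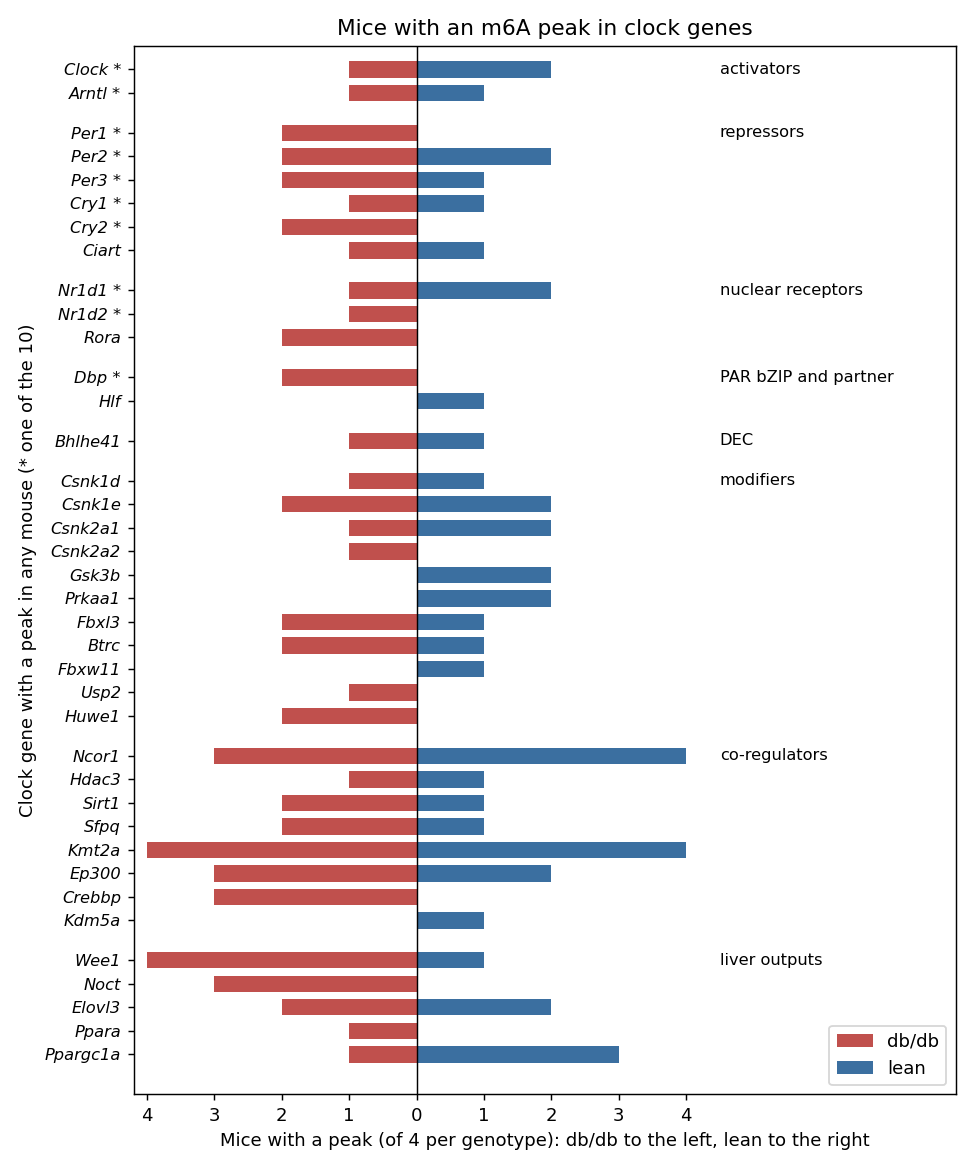
Bars give the number of mice with a peak, out of 4 per genotype, for the 38 clock genes with a peak in any mouse, with db/db mice to the left of 0 and lean mice to the right, and asterisks mark the 10 core genes. Kmt2a reaches 4 on both sides, Wee1 reaches 4 to the left (db/db) and 1 to the right (lean), and no core gene passes 2 on either side.

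Each clock gene with a peak in 2 to 4 mice shared its pattern of mice with other genes. These numbered from 20 to 99, out of 8284 genes with a peak. Per1 and Dbp had their peaks in the same pair of livers, db/db mice 1 and 3, and 99 genes shared that pattern with each of them. Nearness was ranked by the mean difference in within-list fold percentile over the mice with a peak, with predicted genes (Gm and Rik names) left out. Dbp was the second nearest gene to Per1, at 1.45 percentile points, after Phpt1 at 0.381. The pattern of Per2, in db/db mice 1 and 4 and lean mice 1 and 2, was shared by 20 other genes, with Rhbdf2 nearest at 7.57 points. That of Nr1d1, in db/db mouse 3 and lean mice 1 and 3, was shared by 30, with Hnrnpu nearest at 3.60 points. Likeness was measured over 8 mice and, for the percentile, over the 2 to 4 mice with a peak.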

How the data were processed

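Of 16 libraries in the labels, the 8 immunoprecipitated ones, 1 per mouse, were represented by the deposited peak lists, assigned by the sheet name in each title. The 8 input libraries were not analysed here. The submitters' processing notes name cutadapt 1.9.3, HISAT2 2.0.4 and the mouse build mm10. Peaks carry MACS names, per the file headers, and lists were not pooled. How peaks were called against the inputs, and with which release, is not given in the sources used here. Fold enrichment, a ratio, was deposited by the authors for each peak. The deposited score is minus 10 times the log10 of the peak's p-value, and none was under 50. Peak length in bases was also deposited by the authors. A further 8 columns, which repeat the score, were not used.

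Starts were converted to count from 1. Peaks sharing at least 1 base within a gene were joined into 17936 regions. Presence per gene and region was tested with Fisher's exact test (scipy 1.17.1), and covered bases per gene by exact permutation, two-sided, over 70 assignments, each adjusted by Benjamini-Hochberg over all genes or regions. The functions were tested on simulated data. Gene bounds came from RefSeq, GRCm38.p6 (8076 of 8284 gene IDs matched, all 10 clock genes among them; Noct, held without an ID as Ccrn4l, was found by its transcript), and strand from its promoter table (9 of 10). Replicates are separate mice by label. The 10 genes, the 46 further clock genes and the marker lists were chosen with earlier results of these data known. Further clock genes were named if found in at least 5 mice or if the genotypes differed by at least 2 mice, and Npas2, Tef and Nfil3 were chosen after their values were seen.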

Additional observations from a re-analysis of the deposited data

Results flagged for a closer look

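Groups of 4 mice were examined for list length, for totals over the clock genes and for bases covered by peaks of each gene. In 8 of the 28, all of them covered bases of a single gene, 1 mouse lay far from the others. Groups with 0 in all 4 mice are among the 28 and could not be flagged. In each of the 8 the other 3 mice of the genotype had no peak of that gene, so that any peak there stands apart. Chance flags about 1 in 20 groups of values that are not mostly 0. In db/db mice these were Clock with 112 bases and Nr1d1 with 95 bases in mouse 3, Arntl with 194 bases in mouse 2, and Cry1 with 54 bases and Nr1d2 with 195 bases in mouse 1. In lean mice they were Arntl with 185 bases in mouse 4, Per3 with 101 bases in mouse 1 and Cry1 with 63 bases in mouse 2.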

How the results depend on the processing

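The lowest adjusted p over all genes or regions was 1 in each test, so that calls after adjustment say nothing of stability, and counts below are at an unadjusted p under 0.05. With peaks of fold 5 or more, regions joined by a 50% overlap or genes taken from peak position, these counts and that of recurring clock regions stayed within 1.5 times of those reported, but at fold 5 or more the Cry2 difference was 12.3 bases (against 23.3) and 25 percentage points of mice (against 50). With peaks of p at most 1e-10, 6 of the 10 genes kept a peak, no clock region recurred (0, against 4), and over all genes 10 passed by presence (against 28) and 26 by covered bases (against 72), with 12 regions (against 30). There the Per3 difference, db/db minus lean, was -25 percentage points of mice and -25.3 bases. With lists of equal length 1 clock region recurred, the difference in clock genes per mouse was -0.75 (against 1.5), and that of Per3 was -11.8 bases (against 13.5). By construction, equal length took the most peaks from the longest lists, those of db/db mice 1 and 4 and lean mouse 1.

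Leaving out 1 mouse at a time, the difference in clock genes per mouse ran from 1.08 to 2.08 and recurring clock regions from 2 to 4. Over all genes, those that passed ran from 49 to 74 by presence and from 64 to 135 by covered bases, and regions from 47 to 56, since 3 mice against 4 reach that level with fewer peaks. Differences in covered bases changed sign for Arntl (-46.3 to 48.5), Clock (-31.3 to 12), Cry1 (-15.8 to 13.5), Nr1d1 (-42.5 to 4.75), Per2 (-8.67 to 91.7) and Per3 (-7.25 to 38.8). Of 158 such values for single genes, in covered bases or in presence, 16 turned, and of 76 under other settings 3 did. These counts do not measure stability, since some values could not turn. The presence differences of Arntl, Per2 and Cry1 were 0 to begin with, and the replicate block repeats the reported differences. Genes left with no peak under a setting were not counted. With same-numbered mice as pairs (replicate block), 0 genes passed by presence, 0 by covered bases and 0 regions passed, since the smallest p of the 16 sign patterns is 0.125. The labels give no pairing beyond the number, and deviations of same-numbered mice correlated at -0.0377 to 0.0119. Depth was unknown, so that absence of a peak cannot be read as absence of m6A.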

Other observations

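A few further clock genes, chosen after their values were seen, had the same site in every mouse with a peak. Sirt1, a deacetylase that acts on clock proteins, and Sfpq, an RNA-binding partner of the period proteins, each had all their peaks in 1 region, in 2 db/db mice and 1 lean mouse. By fold these stood at a median of the 31.8th percentile of their lists for Sirt1 and the 22.8th for Sfpq. Hdac3, the deacetylase that works with Ncor1, and Ciart, a repressor of the CLOCK pair, each had 1 region, in 1 db/db mouse and 1 lean mouse, at a median of percentile 16.9 for Hdac3 and percentile 32.3 for Ciart. Elovl3, a fatty acid elongase with a strong daily rhythm in mouse liver, had 7 peaks in 4 regions over 2 db/db and 2 lean mice, 1 region being shared by all 4, and covered 33.3 bases on average in db/db mice, against 410 in lean mice (exact permutation p = 0.543, adjusted p = 1). By contrast Csnk1e, a kinase of the period proteins, was found in 2 db/db and 2 lean mice with 5 peaks in 5 regions. No adjusted p of these 6 genes, over all 8284 genes, was below 1 in Fisher's exact test.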
